A study of Rattus norvegicus with 9 samples.

Results

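The ficolin and complement genes studied here are 9 genes of fluid-phase innate immunity: the ficolins Fcna and Fcnb, the C1q chains C1qa, C1qb and C1qc, the central component C3, properdin (Cfp) and the anaphylatoxin receptors C3ar1 and C5ar1. They were selected by name, and 8 of the 9 matched a probeset with a single gene symbol in the platform annotation, 1 probeset each. C5ar1 was not analysed here. All 8 passed the filter on dim genes and are set against 14014 genes tested in all. Expression was measured on 9 one-colour arrays of RNA from hepatic macrophages of male Sprague-Dawley rats, 1 rat per array. The sham group (3 rats) had the abdominal operation and dissection of the portal vein with no ligature. Partial portal vein ligation (PPVL) preceded cell collection by 3 days in another 3 rats. It is a calibrated narrowing of the portal vein that raises portal pressure. The last 3 rats were studied 10 days after it. Ages, the day at which sham rats were studied and the method of cell isolation are not given in the sources used here, so time since surgery and ligation cannot be told apart. The study asks how the profile of these cells changes with time after ligation.

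Complement is a cascade of plasma proteins that marks particles for uptake and recruits leukocytes. The classical pathway starts when C1q, assembled from the products of C1qa, C1qb and C1qc, binds antibody or other ligands, and the lectin pathway starts when ficolins or mannose-binding lectins bind sugars or acetyl groups on microbes and dying cells. Both lead to cleavage of C3, and the alternative pathway amplifies that cleavage with factor B, factor D and properdin, which stabilises the C3 convertase. Fragments of C3 and C5 act on C3ar1 and C5ar1, and surface-bound C3 fragments are taken up through CR3, CR4 and CRIg, the last being a receptor of resident liver macrophages. Hepatocytes make most circulating C3, whereas C1q comes mainly from macrophages and dendritic cells, and properdin from myeloid and lymphoid cells.

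After 3 days, Fcnb (2.34-fold), Cfp (1.79-fold) and Fcna (1.68-fold) were higher than in sham, and no member was lower past the test. After 10 days Fcna was the 1 member that still passed (1.44-fold). The C1q chains were high on 1 array of the 3-day group. C3 was 1.24-fold of sham at 3 days and the mean of C3ar1 was highest at 10 days, neither passing the test. Values below are robust multi-array average (RMA) signals on the log2 scale. Each difference is a log2 difference ± its standard error (SE) with n = 3 rats per group, and each adjusted p is that of a moderated limma contrast, Benjamini-Hochberg adjusted across the 14014 genes and called at 0.05. Signals of different probesets are not compared with each other as amounts of RNA.

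At 3 days 3 of 8 members rose and 0 fell, where 2.15% of all genes tested rose. At 10 days 1 of 8 rose, against 0.492% of all genes. Between 10 and 3 days 0 of 8 passed with limma, and 4 of 8 had an unadjusted p under 0.05. Over all genes these shares were 0.0714% and 11.3% in either direction. The 3 sham values lay below all 3 ligated values for 6 of 8 members at 3 days and for 6 of 8 at 10 days, a pattern held by 10.1% and 9.88% of all genes. The 10-day values lay below all 3-day values for 3 of 8 members (7.74% of all genes). The median difference of the 8 members was 0.69 at 3 days and 0.49 at 10 days, beside -0.014 and -0.00040 over all genes tested. Both comparisons with sham use the same 3 sham arrays. The members and the gene lists below were chosen with earlier results of these data known. Setting their counts beside those of all genes is therefore no test of enrichment.

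**Figure D1:**
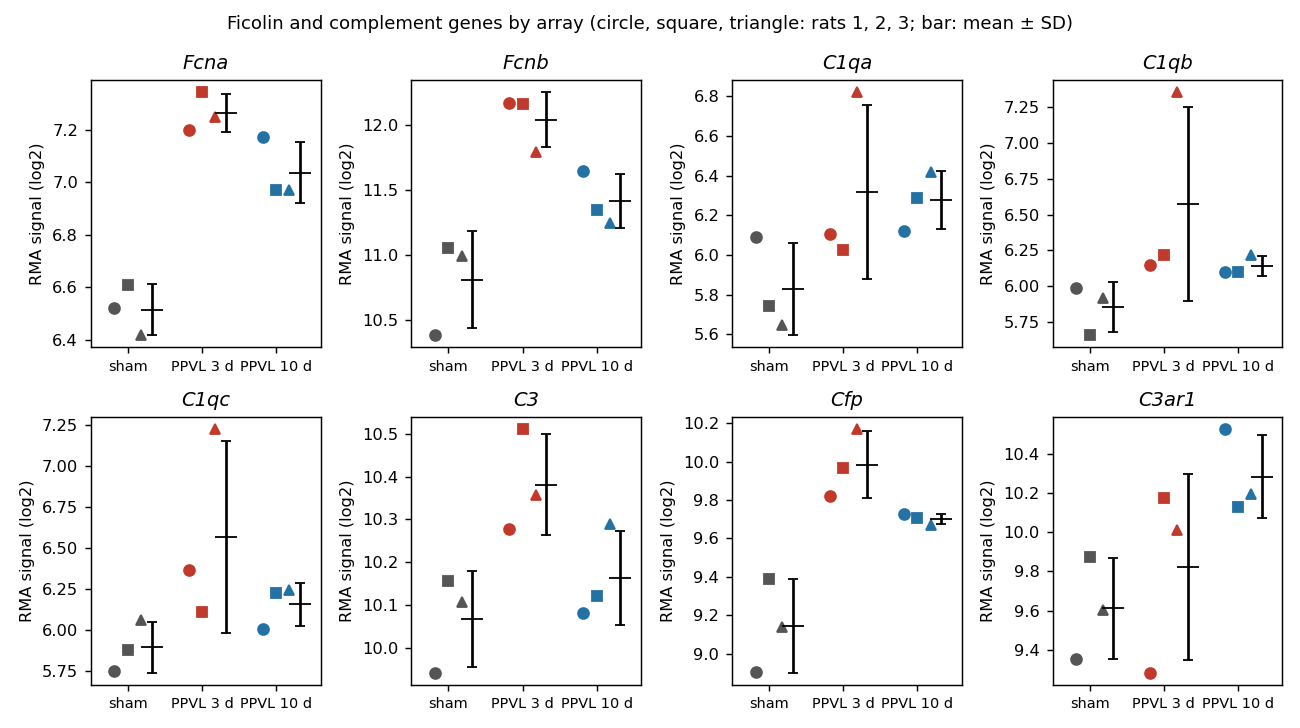
RMA signal (log2, vertical axis, its range set for each gene) of the 8 genes on each array, for sham, 3-day and 10-day rats. Circles, squares and triangles are rats 1, 2 and 3, and bars give the mean ± SD of 3 rats. Fcna, Fcnb and Cfp separate the 3-day from the sham arrays, and 1 triangle stands above the others for each C1q chain.

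The array values were evenly scaled, with medians of 5.21 to 5.26 and correlations between arrays of 0.987 to 0.993. Markers were read against the filter on dim genes at 4.16, the 30th percentile of all probesets. A height above it places a probeset and does not measure how many cells of a type were present. The macrophage marker Adgre1 lay 4.39 above the filter. Several markers that define resident Kupffer cells lay close to it: Clec4f 0.87, Cd163 0.34, Cd5l 0.33, Timd4 0.24 and Vsig4 0.097 above, and Spic 0.75 below. The other genes of the Kupffer cell list lay further above the filter: Nr1h3 3.39, Slc40a1 2.93, Id3 2.53, Folr2 2.46, Marco 1.11 and Adgre1 itself. The tested genes of the T cell list lay from 3.48 (Cd3d) to 7.01 (Cd4) above the filter. Those of the natural killer cell list lay from 3.33 (Eomes) to 7.55 (Prf1) above it. Each gene of a marker list was centred on its average across the 9 arrays, and the average of the tested genes gave the list's score per array. From sham to 3 days the T cell score differed by -0.24, the natural killer cell score by -0.19, the dendritic cell score by -0.34, the sinusoidal endothelial score by -0.012 and the stellate cell score by -0.011. Of these lists only the dendritic cell list held genes that passed at 3 days: Flt3 (-1.12), Clec9a (-0.67) and Irf8 (-0.38) fell, 3 of 6 tested. Over all genes tested 0.714% fell at that day. Itgax, of the same list, went the other way (0.42) and did not pass. By 10 days the T cell difference was -0.36, and that of natural killer cells -0.41. All 10-day values lay below all sham values for 8 of 9 T cell genes and 6 of 7 natural killer cell genes tested, and Cd5 (-0.58) was the 1 of them that fell past the test. Over all genes tested, 11.1% lay below sham in this way and 0.243% fell past the test. In the T cell list the exception was Cd4, whose 10-day values all lay above the sham values (0.22). In the natural killer cell list it was Ncr1, whose values overlapped (-0.22). Neither gene passed. The part of these cells in the 10-day values was not tested. Fewer cells of a type and less RNA per cell cannot be told apart in such bulk samples.

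Ficolin-A, the product of Fcna, is a secreted lectin of liver and spleen macrophages. Fcna read 6.52, 6.61 and 6.42 in the sham rats, 7.20, 7.34 and 7.25 in the 3-day rats and 7.17, 6.97 and 6.97 in the 10-day rats. Every ligated rat lay above every sham rat, and the 10-day rats lay between the other groups. The difference from sham was 0.75 ± 0.080 at 3 days (adjusted p = 0.00245). Leaving out any 1 of the 9 arrays kept the call, with adjusted p up to 0.0117.

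At 10 days Fcna rose by 0.52 ± 0.080 (adjusted p = 0.0449 with limma), close to the threshold. That call was lost without any 1 of the 6 arrays compared: adjusted p was 0.0769, 0.0909 and 0.131 without sham rat 1, 2 or 3, and 0.143, 0.0567 and 0.123 without 10-day rat 1, 2 or 3. It was also lost with no filter on dim genes (adjusted p = 0.0576) and when only these 2 groups were fitted (adjusted p = 0.0542). Between the days Fcna differed by -0.23 ± 0.080, which did not pass (adjusted p = 0.349), although the 10-day values were all lower than the 3-day values.

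Ficolin-B, the product of Fcnb, is held in granules of neutrophils and monocytes and is made mostly in bone marrow myeloid cells. Fcnb read 10.38, 11.06 and 10.99 in the sham rats, 12.16, 12.16 and 11.79 in the 3-day rats and 11.64, 11.35 and 11.24 in the 10-day rats. Sham rat 1 lay 0.67 below the highest sham rat, and all ligated arrays lay above all sham arrays. The rise at 3 days was 1.23 ± 0.18 (adjusted p = 0.0103), the largest among the members. It passed in all 9 fits without 1 array (adjusted p up to 0.0418) and was 1.01 without sham rat 1 (adjusted p = 0.0120).

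At 10 days Fcnb differed from sham by 0.60 ± 0.18, which did not pass (adjusted p = 0.153, 95% interval 0.19 to 1.01), and by 0.39 without sham rat 1. From 3 to 10 days the difference was -0.63 ± 0.18 (adjusted p = 0.282). With only the sham and 3-day arrays in the fit, the 3-day call was just lost (adjusted p = 0.0502 with limma).

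Myeloid marker lists were read beside Fcnb. Of 14 neutrophil markers 13 were tested, and the receptor Csf3r (1.04 ± 0.21, adjusted p = 0.0326 with limma) was the 1 that rose at 3 days, with 0 falling. Over all genes tested 2.15% rose and 0.714% fell. The alarmin S100a8 read 6.34, 7.70 and 7.83 in sham rats and 8.61, 9.06 and 7.77 in 3-day rats, with sham rat 1 the lowest. The neutrophil score ran from -0.89 to 0.31 over sham arrays, from -0.092 to 0.52 at 3 days and from -0.58 to 0.014 at 10 days. Its difference from sham at 3 days was 0.41, and 0.014 without sham rat 1.

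Of 12 recruited monocyte markers 10 were tested, and 6 rose at 3 days: Fn1 (1.31), Vcan (1.24), Cd14 (0.92), Itgam (0.89), Ccr2 (0.85) and Lyz2 (0.37). The other 4 did not pass, and 2.15% of all genes tested rose. The monocyte score ran from -0.46 to -0.19 over sham arrays, from 0.33 to 0.44 at 3 days and from -0.12 to -0.024 at 10 days, so that its 3 groups did not overlap. The part of either marker list in the ficolin values was not tested.

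**Figure D2:**
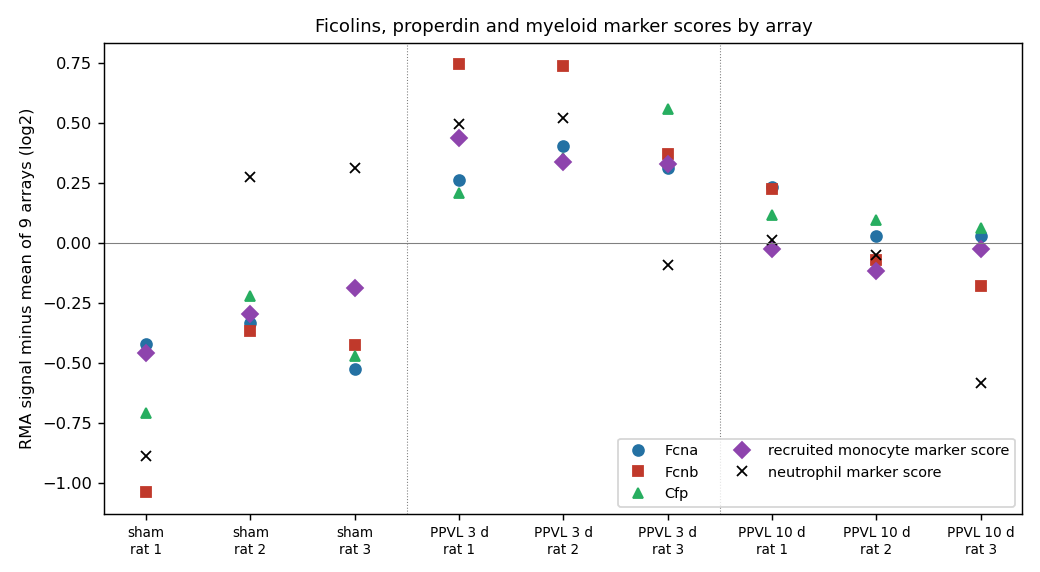
Signal of Fcna, Fcnb and Cfp, and scores of the recruited monocyte and neutrophil marker lists, on each of the 9 arrays (horizontal axis) as log2 values minus their mean over the arrays. The 3 genes and the monocyte score are below 0 on all sham arrays and above 0 on all 3-day arrays. The neutrophil score spreads within each group, from -0.89 to 0.31 in sham rats.

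The bases upstream of both ficolin genes are shown because the 2 paralogues rose together at 3 days and lie on the same chromosome, with 74 protein-coding genes between them in RefSeq's GRCr8 annotation. RefSeq's promoter table held 7 of the 9 members. Each line gives the 250 bases before the annotated start, Fcna at chr3:28847238-28847487 and Fcnb at chr3:31800189-31800438 of GRCr8, both on the minus strand. Capitals mark 2 short motifs searched on both strands. GAGGAA, with TTCCTC as its reverse, is an ETS core with flanking bases, a form bound by PU.1 and other ETS factors. The shorter core GGAA was not searched, and windows without a match to GAGGAA can still hold it. TTGCNNAA, with TTNNGCAA as its reverse, is a loose C/EBP site. Matches of different motifs did not overlap in the windows printed.
Fcna: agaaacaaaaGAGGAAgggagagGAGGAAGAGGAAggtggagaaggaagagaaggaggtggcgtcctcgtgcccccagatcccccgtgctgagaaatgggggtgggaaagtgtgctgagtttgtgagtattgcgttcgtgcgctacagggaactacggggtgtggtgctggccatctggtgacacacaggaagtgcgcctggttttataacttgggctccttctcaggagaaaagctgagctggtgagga
Fcnb: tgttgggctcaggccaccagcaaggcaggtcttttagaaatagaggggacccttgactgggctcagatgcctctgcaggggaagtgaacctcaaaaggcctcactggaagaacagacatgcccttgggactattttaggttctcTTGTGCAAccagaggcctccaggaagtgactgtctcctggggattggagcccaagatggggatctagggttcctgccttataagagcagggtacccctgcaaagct
The Fcna window held 3 matches to GAGGAA, the second and the third directly adjoining, and none to TTGCNNAA. The Fcnb window held 1 match to TTNNGCAA and none to GAGGAA. Of 33469 promoter windows of this length, 23.3% held GAGGAA and 9.22% TTGCNNAA on either strand. A match describes letters and does not show a bound site.

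Properdin, encoded by Cfp, is the positive regulator of the alternative pathway. Cfp read 8.90, 9.39 and 9.14 in sham rats, 9.82, 9.97 and 10.17 at 3 days and 9.73, 9.71 and 9.67 at 10 days. The 3 groups did not overlap, with the 10-day rats between the others and within 0.055 of one another. The rise at 3 days was 0.84 ± 0.12 (adjusted p = 0.00868). It passed in each of the 9 fits without 1 array (adjusted p up to 0.0362), and not when only these 2 groups were fitted (adjusted p = 0.0571 with limma).

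At 10 days Cfp differed from sham by 0.56 ± 0.12, which did not pass (adjusted p = 0.0705, 95% interval 0.28 to 0.83), also in none of the 9 fits without 1 array. The difference between the days was -0.28 ± 0.12 (adjusted p = 0.428). Its upstream bases, at chrX:3715301-3715550 of GRCr8 on the plus strand, are given because it was the other member called at 3 days, with the motifs above in capitals.
Cfp: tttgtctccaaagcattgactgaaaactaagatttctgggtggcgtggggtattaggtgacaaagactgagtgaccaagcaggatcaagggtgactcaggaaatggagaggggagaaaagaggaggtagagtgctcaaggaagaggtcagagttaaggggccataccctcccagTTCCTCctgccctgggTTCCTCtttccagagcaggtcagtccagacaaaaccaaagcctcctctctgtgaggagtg
This window held 2 matches to TTCCTC, starting 76 and 60 bases before the start, and none to the other motif.

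The genes with the most similar profiles were found by the root mean square (RMS) difference between profiles centred on their means, over 9 arrays and 14006 other genes. For Fcna these were Lmna, encoding nuclear lamins A and C (RMS 0.10), Gpx1, a glutathione peroxidase (0.11), and Mtmr10 (0.11), where the median gene had 0.35. For Fcnb they were Mgst1, a microsomal glutathione transferase (0.12), Pla2g7, the platelet-activating factor hydrolase (0.12), and Ampd3, an AMP deaminase (0.13), against a median of 0.57. For Cfp they were Serpinb6a, a serine protease inhibitor (0.068), Angpt1, encoding angiopoietin-1 (0.096), and Mtmr10 (0.10), against a median of 0.40. All 8 of these genes had higher signal at 3 days than in sham (adjusted p between 0.00411 and 0.0304 with limma). They were picked on the same arrays for likeness to members already called, so their rise is no separate result.

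C1qa, C1qb and C1qc encode the 3 chains of C1q and are immediate neighbours in the annotation, with 0 protein-coding genes between C1qa and C1qc or between C1qc and C1qb. C1qa read 6.09, 5.74 and 5.65 in sham rats, 6.11, 6.02 and 6.82 at 3 days and 6.12, 6.29 and 6.42 at 10 days. C1qb read 5.99, 5.66 and 5.92, then 6.15, 6.22 and 7.36, then 6.10, 6.10 and 6.22 in the same order. C1qc read 5.75, 5.88 and 6.06, then 6.36, 6.11 and 7.22, then 6.01, 6.22 and 6.24. For all 3 chains 3-day rat 3 was the highest of the 9 arrays, and the SD within the 3-day group was 0.44, 0.68 and 0.58, against 0.070 to 0.23 in the other groups.

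None of the chains passed at 3 days with limma. The differences from sham were 0.49 ± 0.20 for C1qa, 0.72 ± 0.27 for C1qb and 0.67 ± 0.24 for C1qc (adjusted p = 0.272, 0.218 and 0.192, and unadjusted p = 0.0349, 0.0233 and 0.0183). Without 3-day rat 3 they were 0.24, 0.33 and 0.34 (adjusted p = 0.502, 0.163 and 0.227). At 10 days the differences were 0.45 ± 0.20, 0.29 ± 0.27 and 0.26 ± 0.24 (adjusted p = 0.307 to 0.652), and the 95% intervals reached 0.90, 0.89 and 0.79.

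Of 11 Kupffer cell markers tested, 5 were also highest on 3-day rat 3: Clec4f, Vsig4, Cd5l, Cd163 and Slc40a1. The other 6 were highest elsewhere, Timd4 and Marco on sham rat 1, Id3 and Folr2 on 3-day rat 1, Nr1h3 on 3-day rat 2 and Adgre1 on 10-day rat 3. Vsig4, which encodes the complement receptor CRIg, read 3.98, 3.96 and 3.70 in sham rats, 4.13, 3.98 and 5.70 at 3 days and 4.23, 4.50 and 4.13 at 10 days. It passed the filter only through 3-day rat 3, since its mean over the other 8 arrays was 4.08, below 4.16. On the array of 3-day rat 3, Clec4f read 5.82 and Cd163 5.11, against at most 5.46 and 4.68 on the other 8. The list held 12 genes, and the iron exporter Slc40a1 was the 1 that rose at 3 days (1.27 ± 0.17, adjusted p = 0.00507 with limma), where 2.15% of all genes rose. The Kupffer cell score ran from -0.22 to -0.17 in sham rats, from 0.044 to 0.46 at 3 days and from -0.015 to 0.0094 at 10 days. It differed from sham by 0.38 at 3 days, and by 0.25 without 3-day rat 3. With Vsig4 left out, an alternative chosen after seeing the data, it differed by 0.35 and was 0.36 on 3-day rat 3. The hepatocyte score was also highest on the array of 3-day rat 3 (0.33), and the natural killer cell score was lowest there (-0.33). The sinusoidal endothelial score was highest there too (0.098), close to sham rat 1 (0.079). Scores of the recruited monocyte, neutrophil, T cell, B cell, dendritic cell and stellate cell lists were highest and lowest on other arrays. The part of Kupffer cell markers, or of these other cell types, in the C1q values was not tested.

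**Figure D3:**
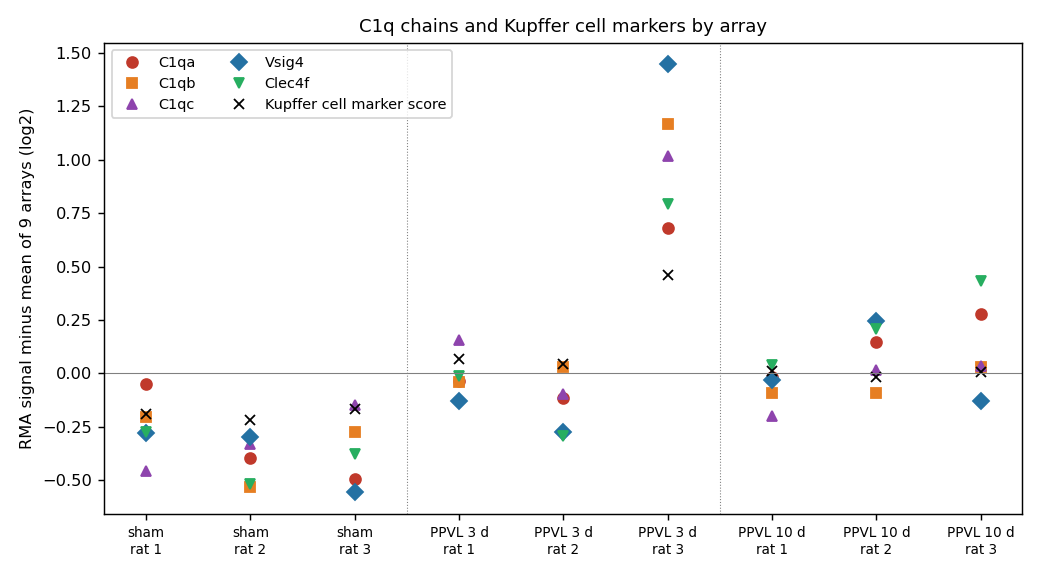
Signal of C1qa, C1qb, C1qc, Vsig4 and Clec4f and the Kupffer cell marker score on each of the 9 arrays (horizontal axis), as log2 values minus their mean over the arrays. All 6 are highest on the array of 3-day rat 3. Vsig4 stands furthest out there, at 5.70 against at most 4.50 on the other 8 arrays, and passed the filter only through that array.

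The upstream bases of C1qa, at chr5:154419934-154420183, and of C1qb, at chr5:154407828-154408077, both on the minus strand of GRCr8, are shown because the chains were high on the same array. The motifs above are in capitals.
C1qa: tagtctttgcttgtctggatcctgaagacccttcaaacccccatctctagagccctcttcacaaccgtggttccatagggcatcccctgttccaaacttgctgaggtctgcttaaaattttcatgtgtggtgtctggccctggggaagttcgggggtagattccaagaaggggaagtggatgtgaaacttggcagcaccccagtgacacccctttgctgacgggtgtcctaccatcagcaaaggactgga
C1qb: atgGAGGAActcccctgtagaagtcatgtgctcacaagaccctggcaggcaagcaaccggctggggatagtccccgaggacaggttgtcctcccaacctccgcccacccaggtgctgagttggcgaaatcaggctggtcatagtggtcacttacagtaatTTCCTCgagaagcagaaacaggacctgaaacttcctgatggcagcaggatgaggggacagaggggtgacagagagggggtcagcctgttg
The C1qa window held no match to either motif. The C1qb window held 2 matches to GAGGAA or its reverse, starting 247 and 90 bases before the annotated start, and none to TTGCNNAA.

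C3 is the component on which all pathways converge. C3 read 9.94, 10.16 and 10.11 in sham rats, 10.28, 10.51 and 10.36 at 3 days and 10.08, 10.12 and 10.29 at 10 days. The 3-day rats lay above all sham rats by at least 0.12, and the 10-day rats overlapped both groups. The difference at 3 days was 0.31 ± 0.089, a ratio of 1.24, which did not pass (adjusted p = 0.107, 95% interval 0.11 to 0.51). At 10 days it was 0.095 ± 0.089 (adjusted p = 0.652 with limma), and between the days -0.22 ± 0.089 (adjusted p = 0.407).

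Of 12 hepatocyte markers 8 were tested beside C3, and haptoglobin (Hp, 0.72 ± 0.13, adjusted p = 0.0225 with limma) was the 1 that rose at 3 days (2.15% of all genes). The hepatocyte score ran from -0.30 to -0.049 in sham rats, from -0.18 to 0.33 at 3 days and from -0.011 to 0.11 at 10 days. Albumin (Alb) read 7.67, 6.83 and 7.80 in sham rats and 8.23, 7.30 and 9.01 at 3 days. The groups overlapped in Alb. The part of hepatocyte RNA in the C3 values was not tested.

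C3ar1 encodes the receptor for the anaphylatoxin C3a. C3ar1 read 9.35, 9.87 and 9.61 in sham rats, 9.28, 10.18 and 10.01 at 3 days and 10.53, 10.13 and 10.19 at 10 days. The 10-day rats lay above all sham rats, whereas 3-day rat 1 was the lowest of the 9 arrays. At 10 days the difference was 0.67 ± 0.22, which did not pass (adjusted p = 0.182, 95% interval 0.17 to 1.17). At 3 days it was 0.21 ± 0.22 (adjusted p = 0.730), and from 0.036 to 0.48 in fits without 1 array, the highest without 3-day rat 1. It is the 1 member whose 10-day mean exceeded its 3-day mean, by 0.46 ± 0.22 (adjusted p = 0.475), and this difference did not pass.

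**Figure D4:**
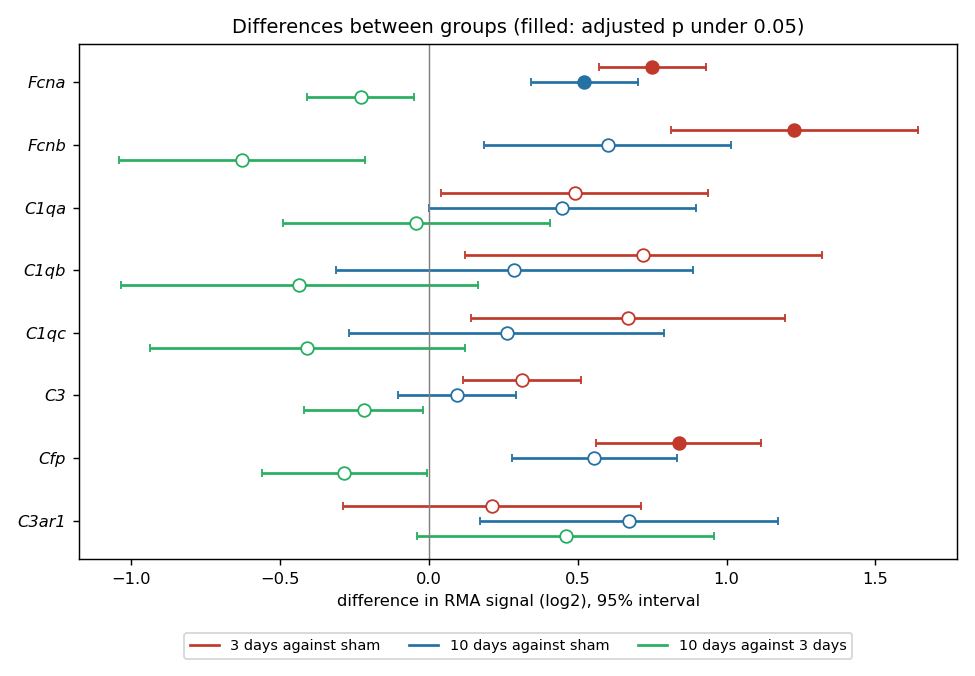
Log2 differences in RMA signal with 95% intervals for the 8 genes, at 3 days against sham, 10 days against sham and 10 days against 3 days, n = 3 rats per group. Filled points passed at adjusted p under 0.05: Fcna, Fcnb and Cfp at 3 days and Fcna at 10 days. C1qb has the widest intervals, with an SE of 0.27.

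Besides these members, 44 complement genes were listed, of which 37 were on the array and 28 passed the filter. At 3 days 4 of the 28 rose and 0 fell, and at 10 days 2 rose and 0 fell, beside the shares of all genes given above (2.15% and 0.492%). The median difference of the 28 was 0.086 at 3 days and 0.12 at 10 days. Between the days 0 of 28 passed with limma, and 3 had an unadjusted p under 0.05, about the share of all genes (11.3%). The genes that rose were the protease factor D and 3 receptors.

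In the alternative pathway, Cfd, encoding factor D, which cleaves factor B, read 5.68, 5.33 and 5.03 in sham rats, 6.06, 6.20 and 6.32 at 3 days and 5.58, 5.71 and 5.69 at 10 days. The 3-day rats lay above all others. Cfd rose by 0.84 ± 0.14 at 3 days (adjusted p = 0.0155), a call lost without sham rat 2 (adjusted p = 0.0586), without 3-day rat 2 (adjusted p = 0.0550) and with only these 2 groups fitted (adjusted p = 0.0760 with limma). Its substrate factor B (Cfb) differed by 0.40 ± 0.19 (adjusted p = 0.349), with every 3-day rat above every sham rat. At 10 days Cfd and Cfb differed from sham by 0.31 and 0.26 and did not pass.

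Among receptors, Itgam, the alpha chain of CR3 and also a gene of the monocyte list above, read 9.07, 9.33 and 9.38 in sham rats, 10.07, 10.33 and 10.02 at 3 days and 10.11, 9.91 and 10.08 at 10 days. It rose by 0.89 ± 0.11 at 3 days (adjusted p = 0.00392) and by 0.78 ± 0.11 at 10 days (adjusted p = 0.0414). Lrp1, a scavenger receptor that has been described as a C1q receptor, rose by 0.85 ± 0.10 and 0.73 ± 0.10 (adjusted p = 0.00338 and 0.0400). Both 10-day calls were lost without any 1 of the sham or 10-day arrays (adjusted p from 0.0535 to 0.143) and with no filter (adjusted p = 0.0535 and 0.0511 with limma). The partner chains Itgax of CR4 and Itgb2, shared by CR3 and CR4, differed by 0.42 and 0.15 at 3 days and did not pass.

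Cr2, the receptor for C3d on B cells and follicular dendritic cells, read 5.15, 5.17 and 5.15 in sham rats, 5.79, 5.71 and 6.20 at 3 days and 5.50, 5.82 and 5.91 at 10 days. Its rise of 0.75 ± 0.14 at 3 days (adjusted p = 0.0213) was lost without sham rat 1, 2 or 3 (adjusted p = 0.0666, 0.0687 and 0.0704) and with only these 2 groups fitted (adjusted p = 0.0571 with limma). At 10 days it differed by 0.59 ± 0.14 (adjusted p = 0.0770), and passed without 3-day rat 3 (adjusted p = 0.0458). Of 8 B cell markers 6 were tested, and 0 passed at 3 days with limma, 4 having an unadjusted p under 0.05 (15.5% of all genes). The B cell score ran from -0.31 to -0.20 in sham rats, from -0.16 to 0.25 at 3 days and from 0.049 to 0.41 at 10 days. The part of B cells in Cr2 was not tested.

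Neither the 8 recognition molecules and proteases tested, such as C1r, Mbl1 and Masp2, nor the 3 terminal components C6, C8a and C8g, nor the 7 regulators held a gene that passed at either day with limma. At an unadjusted p under 0.05 these 3 groups held 0, 0 and 1 genes at 3 days and 1, 1 and 0 at 10 days, where 15.5% and 16.2% of all genes were under it. Several genes of these groups lay close to the filter: C1r 0.67, Mbl1 0.76, C6 0.46, C8a 0.44 and Cpn1 0.10 above it. Others lay further above, such as Masp2 at 1.56, C8g at 2.67 and Cd55 at 7.95. Of the listed complement genes on the array, 9 lay below the filter and were not tested, among them the terminal components C5, C7 and C9. Cd55, the decay-accelerating factor that protects cells from the C3 convertase, differed by -0.025 ± 0.083 at 3 days and 0.12 ± 0.083 at 10 days. Clusterin (Clu), a fluid-phase inhibitor of the terminal complex, differed by 0.50 ± 0.17 at 3 days (adjusted p = 0.169). Vsig4 differed by 0.73 ± 0.37 at 3 days (adjusted p = 0.396), a value that rests on 3-day rat 3, the array through which the gene passed the filter. C2 was not analysed here.

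**Figure D5:**
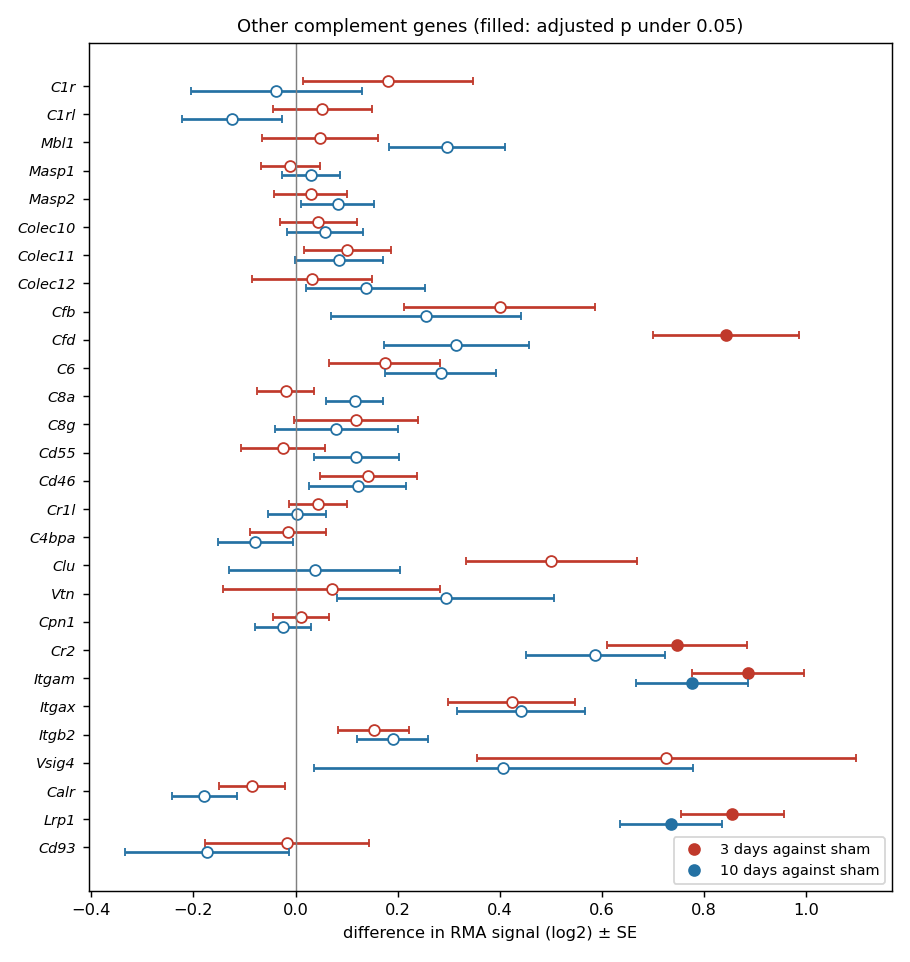
Log2 differences in RMA signal ± SE for the 28 other complement genes tested, at 3 days and at 10 days against sham, n = 3 rats per group. Filled points passed at adjusted p under 0.05: Cfd, Cr2, Itgam and Lrp1 at 3 days, Itgam and Lrp1 at 10 days. No recognition molecule, terminal component or regulator is filled, and several of these genes lay close to the filter on dim genes. The 3-day difference of Vsig4, a receptor, is 0.73 ± 0.37.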

How the data were processed

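The deposited values are log2 signals per probeset, made by the authors with RMA in Transcriptome Analysis Console, per the submitters' processing notes. Their versions and the genome build are not given in the sources used here. In all, the table held 36685 probesets and 0 missing values, and no further normalization was applied. Of these probesets 18511 carried 1 gene symbol, 575 several and 17599 none. The probeset with the highest mean stood for a gene, and a gene entered the test when that mean reached 4.16, the 30th percentile over the whole table.

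Linear models were fitted to all 9 arrays with limma 3.58.1 in R 4.3.3 (6 residual and 3.59 prior degrees of freedom), 2-sided, with Benjamini-Hochberg adjustment over 14014 genes and a threshold of 0.05. An exact permutation test of 3 against 3 cannot go below p = 0.1. The fit was tested on simulated data with independent noise for each gene and array. That setting holds no shift shared by the genes of an array, so it cannot speak to such shifts here. The number of arrays limits the precision, and the median SE of a difference was 0.0861.

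Named were all members, the other complement genes that passed plus Vsig4, Cfb, C2, Cd55 and Itgam (1 further gene of the rule is not reported here), up to 3 genes of each marker list described (more where a count named them) with defining markers, and the 3 genes nearest in profile to each called member. Itgax, Itgb2 and Clu, and the examples of groups without calls, were named after their values were seen. Members and lists were chosen with earlier results of these data known. Alternatives were other filters, the mean of a gene's probesets, quantile normalization, array weights, an intensity trend with robust moderation, the rat number as a replicate block, fits of the 2 groups compared and leaving out each array.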

Additional observations from a re-analysis of the deposited data

How the results depend on the processing

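At 3 days Fcna, Fcnb and Cfp were called under every setting tried, fits without 1 array included, except that with only the groups compared 1 of the 3, Fcna, remained. At 10 days the 1 member called became 0 with no filter, with only the groups compared and with the replicate block, and 0 to 1 in fits without 1 array. No member was called between the days under any setting. Other complement genes numbered 4 at 3 days, 2 with only the groups compared and 2 to 4 in fits without 1 array, the 2 being without sham rat 2. The 2 called at 10 days became 0 with no filter and with the replicate block, and 0 to 3 in fits without 1 array. The difference of C1qa between the days ran from -0.19 to 0.21 in fits without 1 array, and was 0.21 without 3-day rat 3 and 0.035 without 10-day rat 1 in place of -0.041.

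Over all genes, the 401 called at 3 days were 134 with only the groups compared, 264 with the replicate block and 190 to 327 without 1 array. The 103 at 10 days were 197 with array weights, 173 with the filter at the 50th percentile and with trend and robust moderation, 170 with quantile normalization, 61 with only the groups compared, 0 with no filter, 0 with the replicate block and 0 to 140 without 1 array. The 10 between the days were 3 with only the groups compared, 0 with the replicate block and 0 to 18 without 1 array. The cause of these changes was not tested. Arrays with the same rat number share only a number: the correlations of their deviations from the group means ran from -0.095 to 0.084.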
